A study of Homo sapiens with 6 samples.

Results

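A set of 8 genes that mark the myeloid lineage was examined for NFATc2 islands in THP-1, a human monocytic line derived from acute myeloid leukaemia (AML). They were SPI1, CEBPA, CSF1R, CD14, CD33, MPO, LYZ and S100A9, and 3 of the 8 (LYZ, MPO and CSF1R) had an island. An island is a stretch in which the peak caller found more reads after immunoprecipitation (IP) of NFATc2 than the input DNA predicted. Genes were located by their hg19 positions rounded to 10 kb, widened by 5 kb on each side for the rounding. An island counted when it lay over that interval or within 5 kb of it, at any fold, which gave 3 of the 32760 islands in the list. Distance to other genes was not checked, so a counted island may lie nearer to a neighbouring gene, as discussed for MPO below.

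The experiment held 3 NFATc2 IP libraries and 3 Input DNA libraries from THP-1 cells that received no treatment, with 11000000 cells per IP fixed in 1% formaldehyde for 10 min. All 6 libraries are of the same line, so the data have 1 condition, and expression of the 8 genes was not measured here. The islands were called in 1 list on all libraries together, so each value below is the authors' pooled value and no spread between biological replicates can be given. The IP and input reads of an island were calculated back from its fold and p, and the 95% intervals (exact Clopper-Pearson) cover counting error only.

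NFATc2 (NFAT1) is a transcription factor that moves into the nucleus when calcium signals activate calcineurin, and it binds DNA at a short core, GGAAA. SPI1 (PU.1) and C/EBPα are the transcription factors that establish the myeloid programme, and they switch on receptors, granule enzymes and secreted proteins such as the other 6 genes encode. MPO marks granulocyte and monocyte precursors, whereas CD14 and CSF1R mark the monocyte and macrophage branch.

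The share of these genes with an island lay near the share of equally wide stretches of the genome, and 8 genes are too few to read a difference from it. Of the 6 genes whose position is a single rounded point, so that the searched window was 20 kb wide, 2 had an island (LYZ and MPO), and 22.1% of all 20 kb windows between the first and last island of each chromosome were overlapped by one. The window of SPI1 was 40 kb wide and held none, and 31.7% of 40 kb windows held an island. The window of CSF1R was 80 kb wide and held 1, and 42.9% of windows of 80 kb did. None of the 3 islands reached a log2 fold change of 1, the authors' threshold for a peak, which 1.58% of all islands exceed.

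The folds of the 3 islands lay on both sides of the middle of the list. Their median log2 fold change was 0.40, with 0.29 at CSF1R, 0.40 at MPO and 0.72 at LYZ, and the median over all islands was 0.39 with quartiles of 0.29 and 0.53. Their median width was 4200 bp against 4800 bp over all islands. Their IP reads had a median density of 31.0 per kb (31.6 over all islands), and their input reads one of 42.7 (42.1 over all). Among the 3 pairs of genes with an island, Fisher's exact test (two-sided) on IP and input reads called 0 after Benjamini-Hochberg adjustment and 0 before it. The largest difference, LYZ minus CSF1R, was 0.43 on the log2 scale (95% interval -0.04 to 0.90, exact p = 0.079, adjusted p = 0.24). Differences of up to that upper bound are therefore compatible with these reads.

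**Figure D1:**
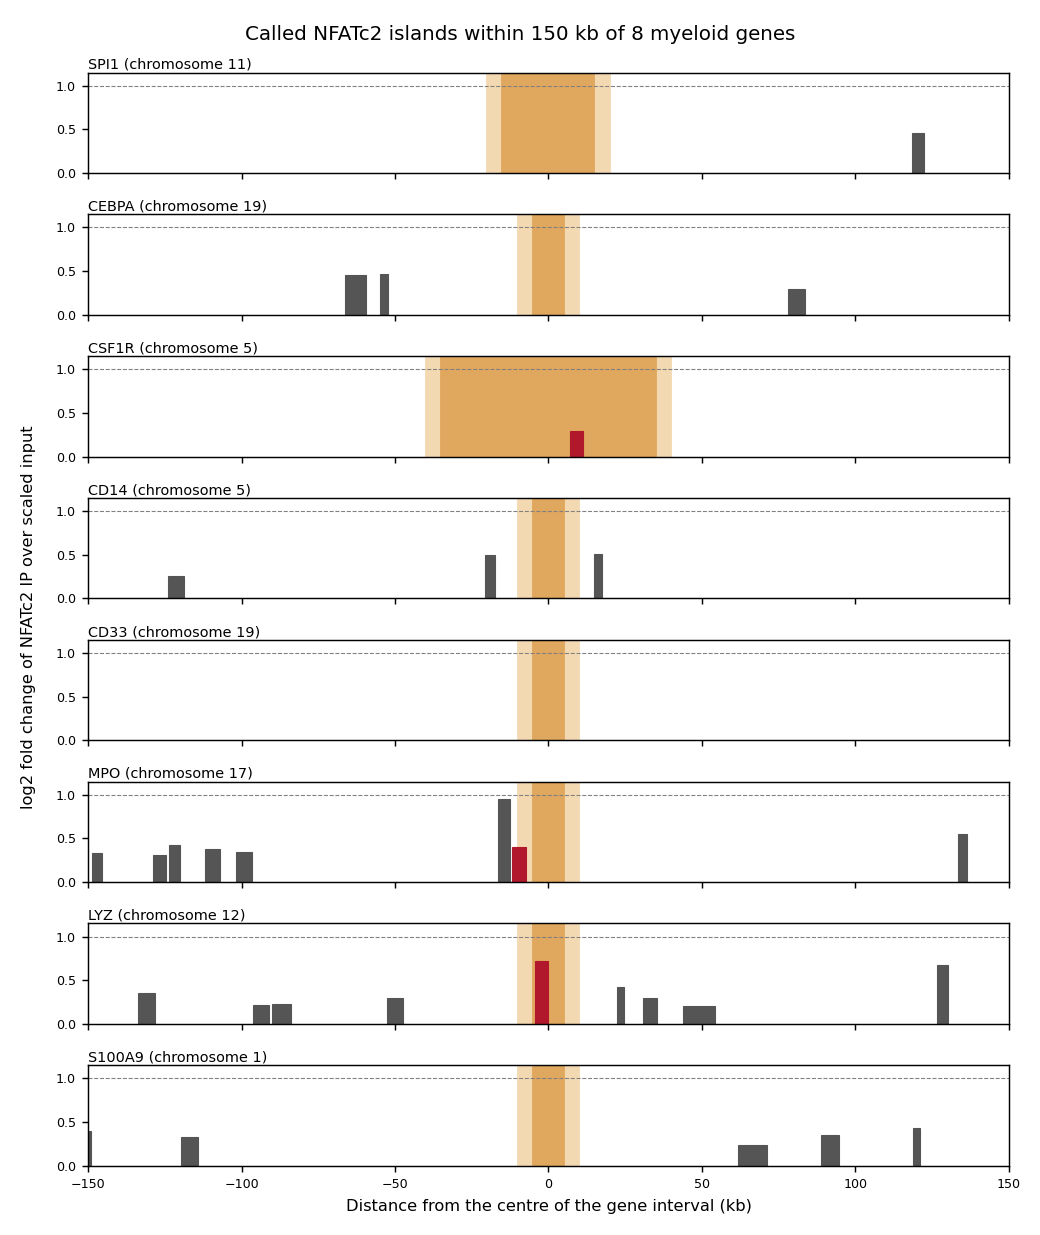
Called islands (bars; height is the log2 ratio of IP to scaled input, y axis) within 150 kb of the centre of each gene interval (x axis, kb), with the interval in dark orange and the 5 kb on each side of it in light orange. Red bars are the 3 islands counted for LYZ, MPO and CSF1R, grey bars are other islands, the dashed line is the threshold of 1, and no island is drawn for CD33.

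SPI1, which encodes PU.1, had no island over or near it, and stood in a stretch of chromosome 11 with few islands. Its position is 47.38 to 47.40 Mb. The nearest island lay 103 kb after it, from 47508401 to 47512400, with 115 IP reads, 149 input reads and a fold of 0.46 on the log2 scale (0.09 to 0.82). Before SPI1 the nearest was 8184 kb away, so that the gene lay within 8317 kb without an island. This stretch was the longest between islands on chromosome 11 and made up 6.17% of it. Of all chromosomes, 6.89% lay in island-free stretches at least as long. The distance of SPI1 to its nearest island, which takes the nearer side only, was nevertheless ordinary. Of equally wide intervals on chromosome 11, 70.63% were as far from an island or farther, and on all chromosomes 39.96%. Only 9.62% of 40 kb windows on chromosome 11 held an island, so a window without one was common there. Within 1 Mb on each side there were 4 islands, or 1.97 per Mb, and the whole chromosome had 2.98 per Mb.

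CEBPA encodes C/EBPα, the factor that drives granulocyte and monocyte differentiation and is mutated in a subset of AML. It had no island within 47.2 kb of its position at 33.79 Mb on chromosome 19, although its surroundings were rich in them for that chromosome. The 25 islands within 1 Mb on each side amounted to 12.4 per Mb, against 3.92 per Mb on chromosome 19. On the log2 scale the nearest island before it (33735201 to 33737800) was enriched by 0.47 (0.05 to 0.88), and the nearest after it (33868201 to 33873600, 73.2 kb away) had 0.30 (-0.01 to 0.60). CEBPA thus lay in an island-free stretch of 130 kb, and 6 of the 26 such stretches in its surroundings were longer. Stretches at least as long made up 90.3% of chromosome 19 and 65.1% of all chromosomes. SLC7A10 and CEBPG, the latter the gene of a related factor, are the neighbours of CEBPA in the reference gene table.

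CSF1R, the receptor for macrophage colony-stimulating factor, had an island inside its rounded interval, away from both ends. The only other gene given as an interval is SPI1, so the genes given as a single point could not show this. The gene is given as 149.43 to 149.49 Mb on chromosome 5, and the island ran from 149467001 to 149471200, 37.0 kb from the first end and 18.8 kb from the last, each known to within 5 kb. It held 130 IP reads where 189 input reads predicted 106.2, a log2 fold change of 0.29. The counting interval of -0.04 to 0.62 included 0, and the authors' −log10 FDR was 1.67. Of all islands 24.6% had a lower fold, and 14.0% of the 4460 islands within 200 bp of its width did. No other island lay within 286 kb of the gene.

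CSF1R is transcribed from more than one start, and RefSeq gives 2 promoters for it, 26.8 kb apart in GRCh38 and both on the minus strand. They are shown because the island lies within this gene, with GGAAA on either strand (read as GGAAA or TTTCC) in capitals. Each runs from 250 bases before the start to 50 after it. The first is chr5:150113316-150113615 and the second chr5:150086505-150086804. The island is placed in hg19, and no position was carried between the builds. If the last end of the rounded interval is the first start and the spacing is the same in hg19, neither of which was checked, the island, 18.8 kb from that end, lies nearer the second start, and the rounding does not change this.
CSF1R first promoter: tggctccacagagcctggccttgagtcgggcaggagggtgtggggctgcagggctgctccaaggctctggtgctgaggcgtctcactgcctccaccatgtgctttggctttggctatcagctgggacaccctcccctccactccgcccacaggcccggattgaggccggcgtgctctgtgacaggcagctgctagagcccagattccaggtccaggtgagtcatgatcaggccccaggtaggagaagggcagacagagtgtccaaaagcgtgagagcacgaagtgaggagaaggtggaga
CSF1R second promoter: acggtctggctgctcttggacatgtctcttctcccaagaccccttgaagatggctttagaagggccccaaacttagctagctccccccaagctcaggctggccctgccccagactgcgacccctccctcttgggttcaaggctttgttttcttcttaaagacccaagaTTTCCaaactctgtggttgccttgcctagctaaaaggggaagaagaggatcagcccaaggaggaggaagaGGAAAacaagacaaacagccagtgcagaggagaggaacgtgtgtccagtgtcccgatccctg

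The first CSF1R promoter held 0 matches to the core and the second 2, one on each strand. One of these extended to TGGAAA, a longer form that contains the core. The core is common, with at least 1 match in 61.2% of 35116 RefSeq promoters of this length, and TGGAAA in 20.7%.

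CD14, the monocyte co-receptor for lipopolysaccharide, had an island on each side but none close enough to count. Its position is 140.01 Mb on chromosome 5. The island after it (140024801 to 140027600) was 9.80 kb away with 91 IP reads, 114 input reads, and its log2 fold change was 0.51 (0.09 to 0.92). The one before it (139989201 to 139992600) was 12.4 kb away with 104 IP reads, 131 input reads and 0.50 (0.11 to 0.88). Both folds were above the list's median, and both intervals excluded 0. A distance limit of 10 kb would have counted the first, and 1 of 25 kb both. The stretch between them, with CD14 in it, was 32.2 kb long, shorter than 13 of the 19 island-free stretches around the gene. In the reference gene table TMCO6 overlaps CD14 and NDUFA2, a subunit gene of mitochondrial complex I, is a neighbour, and whether the islands lie at these was not tested.

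The CD14 promoter is shown as that of a gene without an island, with the core in capitals as before. It is chr5:140633126-140633425 in GRCh38, minus strand.
CD14 promoter: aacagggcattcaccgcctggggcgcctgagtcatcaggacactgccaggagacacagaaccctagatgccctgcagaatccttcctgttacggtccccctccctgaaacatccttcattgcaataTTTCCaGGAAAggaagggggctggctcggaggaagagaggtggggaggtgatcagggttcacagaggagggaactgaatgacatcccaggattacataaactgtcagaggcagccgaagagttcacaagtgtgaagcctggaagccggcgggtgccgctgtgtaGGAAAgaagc

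It held 3 matches, 1 of them in TGGAAA. The S100A9 promoter held 2, and those of CEBPA and CD33 held 0. None of the 6 promoters matched, for these 5 genes, held CACGTG (the E-box that MYC binds), GAGGAAGT (a PU.1 sequence) or TTGCGCAA (a C/EBP sequence) on either strand. Among all promoters 7.26%, 2.59% and 0.151% did. LYZ, MPO and SPI1 were not matched. These windows are short and a match describes letters only.

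CD33, a sialic acid-binding receptor of myeloid cells and the target of an antibody drug in AML, stood farthest from any island among the 8 genes. The nearest lay 301 kb after its position at 51.73 Mb on chromosome 19, from 52036201 to 52040600, with 128 IP reads, 176 input reads and a fold of 0.37 on the log2 scale (0.03 to 0.71). Before the gene there was none for 1885 kb, so that the island-free stretch was 2196 kb long. Of chromosome 19, 19.4% lay in stretches at least that long, and 26.6% of 10 kb intervals on all chromosomes were as far from an island or farther. The 6 islands within 1 Mb on each side amounted to 2.99 per Mb.

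**Figure D2:**
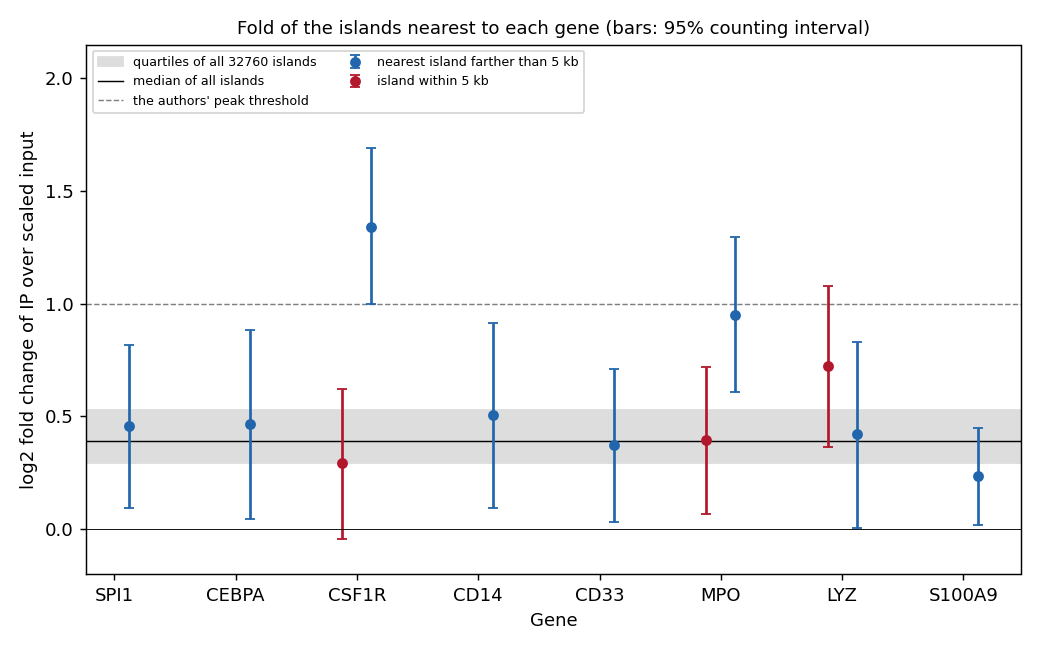
Log2 ratio of IP to scaled input (y axis) of the island within 5 kb of each gene (red) and of the nearest island beyond 5 kb (blue), with bars for the 95% counting interval. The grey band spans the quartiles of all 32760 islands (0.29 to 0.53), and the points at LYZ (0.72, red), MPO (0.95, blue) and CSF1R (1.34, blue, 286 kb away) lie above it.

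MPO, the myeloperoxidase of neutrophil and monocyte granules, had 1 island within 5 kb and a stronger one just beyond that limit. The island that counted ran from 56338201 to 56342600 on chromosome 17, 2.40 kb from the widened interval of MPO at 56.35 Mb, with 139 IP reads and 188 input reads. Its log2 fold change was 0.40 (0.07 to 0.72), and 50.9% of all islands were lower. The one beyond the limit, 7.60 kb away from 56333601 to 56337400 and 800 bp from the first, held 150 IP reads and 138 input reads. Its log2 fold change was 0.95 (0.61 to 1.30), higher than 97.9% of all islands and than 98.4% of the 4153 islands of like width, with a −log10 FDR of 10.9. LPO, which encodes the related lactoperoxidase, is the neighbour before MPO in the reference gene table, on the side of both islands, and TSPOAP1 the neighbour after it. Whether either island is nearer to LPO than to MPO was not tested, because hg19 positions of the neighbours were not at hand. If the first is nearer to LPO, only 2 of 8 genes have an island of their own. Without the widening for rounding the first does not count for MPO either, which also leaves 2 of 8 genes. On the other side of MPO the nearest island was 128 kb away.

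LYZ, the gene of lysozyme, which monocytes secrete, had the island of highest fold among the 3. It ran from 69735601 to 69739800 on chromosome 12 and overlapped the widened interval around 69.74 Mb. It held 128 IP reads where 138 input reads predicted 77.5, a log2 fold change of 0.72 (0.36 to 1.08), with a −log10 FDR of 6.03. Of all islands 91.7% had a lower fold, and 92.0% of the 4460 of like width. Its input was low, at 32.9 reads per kb, where the other islands within 1 Mb on each side had a median of 44.5. Its IP reads, at 30.5 per kb, were close to their median of 31.2. The next islands lay 17.4 kb after the gene (0.42, interval 0.01 to 0.83) and 42.4 kb before it (0.29, interval -0.01 to 0.59). YEATS4 and CPSF6 are its neighbours in the reference gene table.

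S100A9, which encodes a subunit of calprotectin, the calcium-binding protein of neutrophils and monocytes, had no island within 56.8 kb although islands were frequent around it. Its position is 153.33 Mb on chromosome 1, between PGLYRP4 and S100A12 in the reference gene table. The 43 islands within 1 Mb on each side amounted to 21.4 per Mb, against 11.8 per Mb on the chromosome, and covered 15.1% of that region. Of 20 kb windows there, 42.6% were overlapped by an island. The nearest (153391801 to 153401200) held 296 IP reads and 448 input reads with a log2 fold change of 0.23 (0.02 to 0.45). The nearest on the other side was 109 kb away with 0.33 (0.05 to 0.61). The island-free stretch of 176 kb that holds S100A9 was longer than all but 1 of the 43 such stretches in this region, whose median was 20.8 kb. Long stretches take up more sequence, and 60.5% of chromosome 1 and 60.0% of all chromosomes lay in stretches at least as long. Of 10 kb intervals on all chromosomes, 50.1% were as far from an island as S100A9 or farther, so its distance was ordinary.

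**Figure D3:**
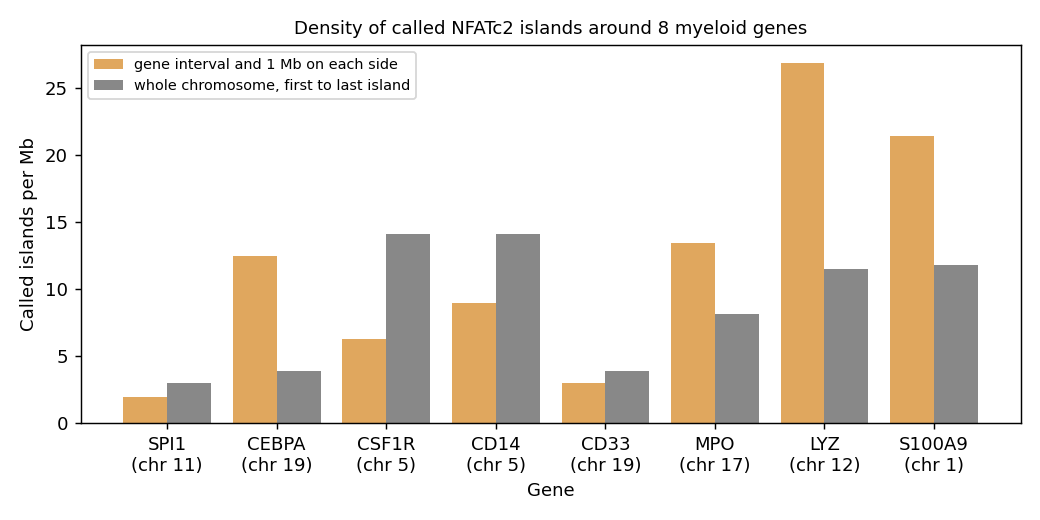
Called islands per Mb (y axis) in the gene interval with 1 Mb on each side (orange) and on the whole chromosome from its first to its last island (grey), for each of the 8 genes (x axis). The orange bars of LYZ (26.9), S100A9 (21.4), MPO (13.4) and CEBPA (12.4) stand above those of their chromosomes, and those of SPI1, CSF1R, CD14 and CD33 below.

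The islands at LYZ and CSF1R were then compared with the other islands of the same 2 Mb, to ask whether the gene stands apart from its surroundings. LYZ was higher than 51 of its 53 flanking islands, by 0.39 on the log2 scale for summed reads (95% interval 0.04 to 0.74, Fisher's exact test, two-sided, p = 0.033, adjusted p = 0.050 over 3 genes, just under the threshold). CSF1R was lower than 11 of its 12 (difference -0.38, interval -0.72 to -0.05, exact p = 0.027, adjusted p = 0.050). A flank holds only called islands, and 4 kb at the median input of islands needed 0.26 to match the weakest p. The CSF1R island, at 0.29, therefore had little room below it among islands of like width. MPO was lower than 13 of its 26 (difference -0.04, interval -0.36 to 0.28, exact p = 0.82). In the flanks of CSF1R, 3 islands, 286 to 296 kb after it, were above a log2 fold change of 1 (1.34, 1.48 and 1.06). Without these 3, left out after the data were seen, the difference was -0.11 (exact p = 0.55, adjusted p = 0.82), and the adjusted p of LYZ became 0.099 because CSF1R no longer passed. With flanks of 0.5 Mb the difference of CSF1R grew to -0.90 (exact p adjusted, 1.6e-06), with the same 3 islands among its 4, and LYZ, at 0.37, missed the threshold (adjusted p = 0.057). With flanks of 2 Mb both missed it (exact tests), LYZ at 0.34 (adjusted p = 0.16) and CSF1R at -0.27 (adjusted p = 0.17). The test takes reads of different islands as alike within a flank, so these p-values are too small where islands differ beyond counting error. In the flank of CSF1R they did differ. The island at 1.48 (interval 1.17 to 1.80) stood beside another at 0.32 (-0.05 to 0.69), so the p-values of CSF1R against this flank are too small.

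For the 5 genes without an island, the list does not show that NFATc2 was absent. At the median input of islands, 42.1 reads per kb, a stretch of 4 kb (168 input reads, 94.4 IP reads predicted) would have needed 113 IP reads, a log2 fold change of 0.26, to match the weakest p in the list. A stretch of 1 kb would have needed 0.48. The input reads at these genes are not known, since the list gives reads only inside islands, and the caller's other steps may ask for more.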

How the data were processed

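ChIP-seq libraries of NFATc2 IP (n = 3) and Input DNA (n = 3) were pooled by the authors into 1 deposited list of epic2 islands. The build was hg19. Per the submitters' processing notes, the tools included BWA (version 0.7.17.1) and Trimmomatic (version 0.36.5), with SAMtools in version 1.3.1. SICER is listed as version 0.0.52, and ChIPseeker in version 1.18.0. For each island the deposited list gives the log2 ratio of IP to depth-scaled input, and a score that is 100 times this value without its decimals. The authors' caller also wrote a −log10 p-value, from a Poisson model of the input, and a −log10 FDR (the FDR is below 0.05 for all islands). Peaks in blacklisted regions were not taken out of the list.

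IP reads were the whole number that gave back the listed p at the listed fold under the caller's Poisson formula, and input reads followed with a scaling factor of 0.562. They were whole within 0.02 in 32750 islands, including those near the 8 genes, and both read numbers were recovered in 1999 of 2000 simulated islands. Depth per library is unknown. Island ends were counted from 1. Fisher's exact tests compared IP and input reads between genes and with islands up to 1 Mb away, with Benjamini-Hochberg adjustment at 0.05. Promoters are RefSeq's (GRCh38.p14), and gene neighbours are from its gene table, in which all 8 genes matched. No position was carried between builds. All 8 genes of the list are named, with every island that counted or the nearest on each side. The genes, lists and tests were chosen with earlier results of these data known. Alternatives were other distances, no widening, a stricter FDR, a log2 fold change above 1, other flanks, 1 island or 1 value per gene. Calculations were made with scipy 1.17.1, pandas 2.3.3 and numpy 2.4.6 in Python 3.11.15, and plots with matplotlib 3.10.9.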

Additional observations from a re-analysis of the deposited data

How the results depend on the processing

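The count of 3 genes and 3 islands fell to 1 (LYZ) at FDR below 0.001, where the median log2 fold change was 0.72, and to 0 at a log2 fold change above 1. It was 2 genes (LYZ and CSF1R) over the widened interval only, and also with no widening but the distance of 5 kb kept. At FDR below 0.01 it was 2 genes as well (LYZ and MPO). A distance of 10 kb gave 4 genes with 5 islands, and one of 25 kb gave 4 genes with 7. The median log2 fold change otherwise stayed between 0.40 and 0.56.

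The number of genes that differed from their flanks was 2 as reported. It was also 2 over the widened interval only and with no widening. Both settings kept the reads of LYZ and CSF1R and took MPO out of the adjustment. Taking 1 island or 1 value per gene could not change the number, because each gene had 1 island. With flanks of 0.5 Mb the number was 1 (CSF1R). It was 0 at 10 kb, at 25 kb, at FDR below 0.01 and 0.001, with flanks of 2 Mb, with flank islands of the same widths and, chosen after the data were seen, without flank islands above a log2 fold change of 1. At 10 kb the differences of LYZ (0.39) and CSF1R (-0.38) and their unadjusted exact p (0.033 and 0.027) were those reported, and with 4 genes tested both had an adjusted p of 0.063. At 25 kb the difference of CSF1R was again -0.38 (adjusted exact p = 0.078), and LYZ, with a second island counted, was at 0.26 (unadjusted exact p = 0.059). LYZ was at 0.32 and 0.22 at FDR below 0.01 and 0.001 (unadjusted exact p = 0.079 and 0.23), where CSF1R has no island. Against flank islands of the same widths LYZ was at 0.41 (adjusted exact p = 0.085), with only 3 islands to compare. CSF1R had 1 such island, and its difference there was only -0.10 (unadjusted exact p = 0.74). LYZ was thus higher than its flank in every alternative with an island, and CSF1R lower. Nearly all of these reuse the same island of each gene and overlapping flanks, so the shared sign adds little. For the other settings in which a call was lost, the cause was not tested. MPO minus its flank turned to 0.24 at 10 and 25 kb, where its stronger island is counted. No pair of genes differed in any alternative with at least 2 genes. No paired analysis was possible because every value is pooled over the libraries, and no replicate could be left out for the same reason. With flank islands of the same widths MPO had none to compare.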
